A study of Mus musculus with 8 samples.

Results

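The 9 genes described here encode calcium-permeable or calcium-activated cation channels of the Piezo and TRP (transient receptor potential) families: Piezo1, Piezo2, Trpv1, Trpv2, Trpv4, Trpc1, Trpc6, Trpm4 and Trpm7. They were taken by gene name from a list written for this purpose, and each of the 9 names had exactly 1 row among the 20681 genes of the table. RNA of whole mouse knee joints was sequenced after capture on poly-T beads, in 4 libraries labelled control and 4 labelled knockout. The design text of the series gives all 8 samples as Acan-Cre;Loxl2 fl/fl, that is, with a floxed Loxl2 gene (lysyl oxidase-like 2, a collagen-crosslinking enzyme) and Cre driven by Acan, the aggrecan gene of cartilage cells. The controls are described as treated with vehicle, and their library names carry LOXL2wt, whereas the names of the other group carry LOXL2ko. What the knockout group received in place of vehicle is not given in the labels, so allele and treatment cannot be told apart. All library names carry DMM, in this field the usual short form for surgical destabilisation of the medial meniscus. Age, sex, strain and time after surgery are not given in the sources used here. Because Cre acts only in cells that use the Acan promoter, the allele can be altered in part of a whole joint only.

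Piezo channels open when the membrane is stretched, and chondrocytes carry both Piezo1 and Piezo2 as sensors of heavy load. In sensory neurons Piezo2 serves touch and proprioception. TRPV4 responds to osmotic swelling and moderate load in chondrocytes, and TRPV1 is the capsaicin and heat receptor of pain fibres, whose cell bodies lie in the dorsal root ganglia outside the joint. Calcium that enters through such channels binds calmodulin and activates the phosphatase calcineurin, which sends NFAT transcription factors to the nucleus.

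The libraries held 13991000 to 17411617 reads assigned to genes. Values below are normalised read counts (reads divided by the size factor of the library), group values are mean ± SD with n = 4, and differences are log2 differences of the libraries labelled knockout minus the controls, on log2(value + 1), with the standard error (SE) of limma. Loxl2 itself was not lower in the libraries labelled knockout, with values of 282, 349, 1135 and 311 over the controls and of 893, 1468, 960 and 1518 over the libraries labelled knockout (log2 difference 1.44, SE 0.40, limma adjusted p = 0.0294), against the direction of the label. The groups are therefore called by their labels throughout. The make-up of the RNA also differed between the groups. Skeletal muscle markers (18 of 18 in the table) held 15.97 to 16.6% of the summed values of a control library and 9.58 to 12.7% of a library labelled knockout. Fibroblast markers (16 of 16) held 0.508 to 1.46% and 1.65 to 3.30%, and macrophage markers (12 of 12) 0.0171 to 0.0425% and 0.0673 to 0.110%. The groups did not overlap in any of these sums, and 11 of the 12 chondrocyte markers were present, none of them at 0 in all libraries. Osteoclast and osteoblast markers were higher as well (7 of 8 and 5 of 10 called), and 0 of 7 erythroid markers were called although their sum was lower by 1.81 on the log2 scale. In RNA of a whole joint, fewer cells of a type and less RNA per cell cannot be told apart.

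All 9 channel genes passed the filter on low values (10 or more normalised reads in 4 or more libraries) and were tested. Trpv2 alone rose at a limma adjusted p under 0.05, so that 1 of 9 channel genes (11.1%) was called, against 23.2% of the 14949 genes tested (11.6% higher and 11.6% lower). Trpv2 was also the only one of the 9 whose groups did not overlap, while 25.1% of all genes tested had groups that did not overlap. The differences of 8 channel genes lay above 0 and that of Trpm4 below it, with a median of 0.32 against 0.0012 over all genes tested. Under quantile normalisation the differences of Trpv1 and Trpc6 lay below 0 as well, and that of Trpc6 also with edgeR and DESeq2. Over all genes tested, 5741 of 14949 had an unadjusted limma p under 0.05, called or not. Beside Trpv2, another 4 channel genes had one without passing the adjustment: Piezo1, Piezo2, Trpv4 and Trpm4. The scaling mattered for these calls. When each library was scaled on genes outside muscle, blood and the 50 highest genes, the median over all genes shifted to 0.15 and 5 of the 9 were called, all higher: Piezo1, Piezo2, Trpv2, Trpv4 and Trpm7. That scaling called 23.4% of all genes tested, 18.2% higher and 5.2% lower, so calls of a rise were more common in the whole table. Relative to that median, their differences were 0.32, 1.10, 1.15, 0.57 and 0.28.

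**Figure D1:**
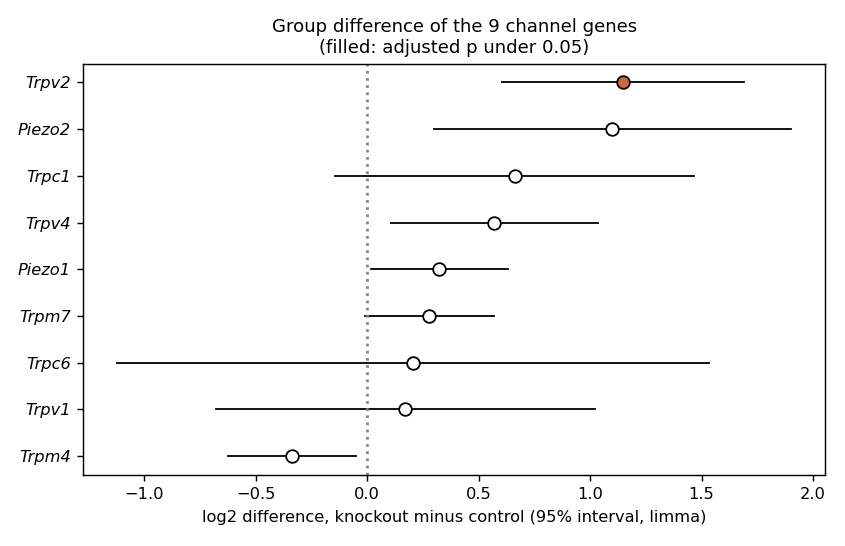
Log2 difference of each of the 9 channel genes, libraries labelled knockout minus control (x axis), with the 95% interval of the limma fit; a filled point has an adjusted p under 0.05. Trpv2 is the only filled point, at 1.15, and Trpm4 is the only point left of 0.

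Trpv2 (chromosome 11, 62574486 to 62600515, plus strand, mm10) encodes a TRPV channel found in macrophages, where it takes part in phagocytosis, and in muscle and neurons. Its normalised read count was 93.0, 43.4, 56.1 and 72.3 in control replicates 1, 2, 3 and 4 and 132, 137, 123 and 185 in the libraries labelled knockout. Every library labelled knockout lay above every control, and the mean went from 66.2 ± 21.4 to 144 ± 27.8. The log2 difference was 1.15 with an SE of 0.24 (limma adjusted p = 0.0115), a 2.22-fold rise with a 95% interval of 1.52 to 3.22, and the exact two-sided permutation test gave its smallest possible p of 0.0286. Leaving out each library in turn kept the call in all 8 fits, with limma adjusted p-values up to 0.0398. Macrophage markers moved with it: 9 of 12 were called, all higher, and their summed level ran from 2966 to 6912 in control libraries and from 10253 to 14642 in libraries labelled knockout, a log2 difference of 1.27. Other marker sums rose too: fibroblast by 1.39 and osteoblast by 1.88 on the log2 scale, both without overlap of the groups, and osteoclast by 2.65, with overlap. The skeletal muscle sum was lower by 0.77. The part of any of these cell types in the rise of Trpv2 was not tested.

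The bases before the start of Trpv2 are shown as the promoter of the channel gene that was called, and those of Trpv4 as the promoter of its relative in the same subfamily. RefSeq sequences on GRCm38.p6, the build of mm10, were available for 7 of the 9 genes. Each window is the 250 bases upstream of the first listed start (3 are listed for Trpv2), written 5′ to 3′ on the strand of the gene. Capitals mark matches, on either strand, to 5 short motifs. The AP-1 motif searched was TGANTCA. The core of PU.1, a factor of macrophages, was searched as GAGGAA. The NFAT core was searched as TGGAAA. The TEAD core was searched as GGAATG. The GC box was searched as GGGCGG.
Trpv2, chr11:62574236-62574485, plus strand: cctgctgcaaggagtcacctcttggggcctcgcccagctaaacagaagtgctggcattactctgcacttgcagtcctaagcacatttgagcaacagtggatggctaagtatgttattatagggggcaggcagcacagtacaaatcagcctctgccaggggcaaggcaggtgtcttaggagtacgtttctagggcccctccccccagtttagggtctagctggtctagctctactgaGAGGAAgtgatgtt
Trpv4, chr5:114658422-114658671, minus strand: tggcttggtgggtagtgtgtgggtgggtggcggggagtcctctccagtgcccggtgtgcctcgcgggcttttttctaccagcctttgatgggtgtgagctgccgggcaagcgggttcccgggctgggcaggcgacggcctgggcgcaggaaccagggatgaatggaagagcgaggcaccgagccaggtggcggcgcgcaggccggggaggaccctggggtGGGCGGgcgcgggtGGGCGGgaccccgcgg

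The Trpv2 window held 1 match, to the PU.1 core, starting 14 bases before the start of transcription, and such a match occurs in 23.3% of the 32851 mouse promoter windows of this length. The Trpv4 window held 2 matches to the GC box, starting 30 and 16 bases before the start, which 32.7% of all windows hold at least once. Neither printed window matched the AP-1, NFAT or TEAD motif, which 6.75%, 18.6% and 12.6% of all windows hold. The window of the start of Trpv2 farthest downstream held instead 1 NFAT and 1 TEAD core, 77 and 188 bases before it. These are matches of letters in the genome and no measurement of binding.

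Trpv4 (chromosome 5, 114622152 to 114658421, minus strand), the osmotic and mechanical sensor of chondrocytes, had normalised read counts of 176, 91.9, 127 and 107 in the controls and 222, 161, 159 and 191 in the libraries labelled knockout. All 4 libraries labelled knockout lay above the control median, but control replicate 1 lay above 2 of them. The mean was 126 ± 36.7 and 183 ± 30.0, and the log2 difference of 0.57 (SE 0.21, 95% interval 0.10 to 1.03) was not called (limma adjusted p = 0.0735, exact permutation p = 0.0857). Without control replicate 1 the difference was 0.75 and was called (limma adjusted p = 0.0244). Without control replicate 2 it was 0.43 (limma adjusted p = 0.180), and under quantile normalisation 0.39 (limma adjusted p = 0.170). Chondrocyte markers, of which 2 of 11 tested were called and higher, summed to 4523 to 14037 in the controls and 12164 to 15944 in the libraries labelled knockout.

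Trpv1 (chromosome 11, 73234292 to 73261242, plus strand), the receptor of heat and capsaicin, was barely detected, with 6 to 14 reads per library. Its normalised read count was 10.8, 8.08, 10.3 and 6.57 in the controls and 5.98, 10.3, 13.1 and 12.3 in the libraries labelled knockout. The lowest and the highest of the 8 values were both in libraries labelled knockout. The log2 difference was 0.17 with an SE of 0.38 and a 95% interval from -0.68 to 1.02 (limma adjusted p = 0.773), which as a fold runs from 0.624 to 2.03. It was 0.048 without control replicate 4, 0.054 and 0.080 without knockout replicates 3 and 4, and 0.26 and 0.39 without control replicate 1 and knockout replicate 1. Of the 17 sensory neuron markers 8 were in the table, and the other 9 were not analysed here. The 8 summed to 438 to 548 in the controls and 372 to 603 in the libraries labelled knockout, and 1 of 5 tested was called, lower.

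**Figure D2:**
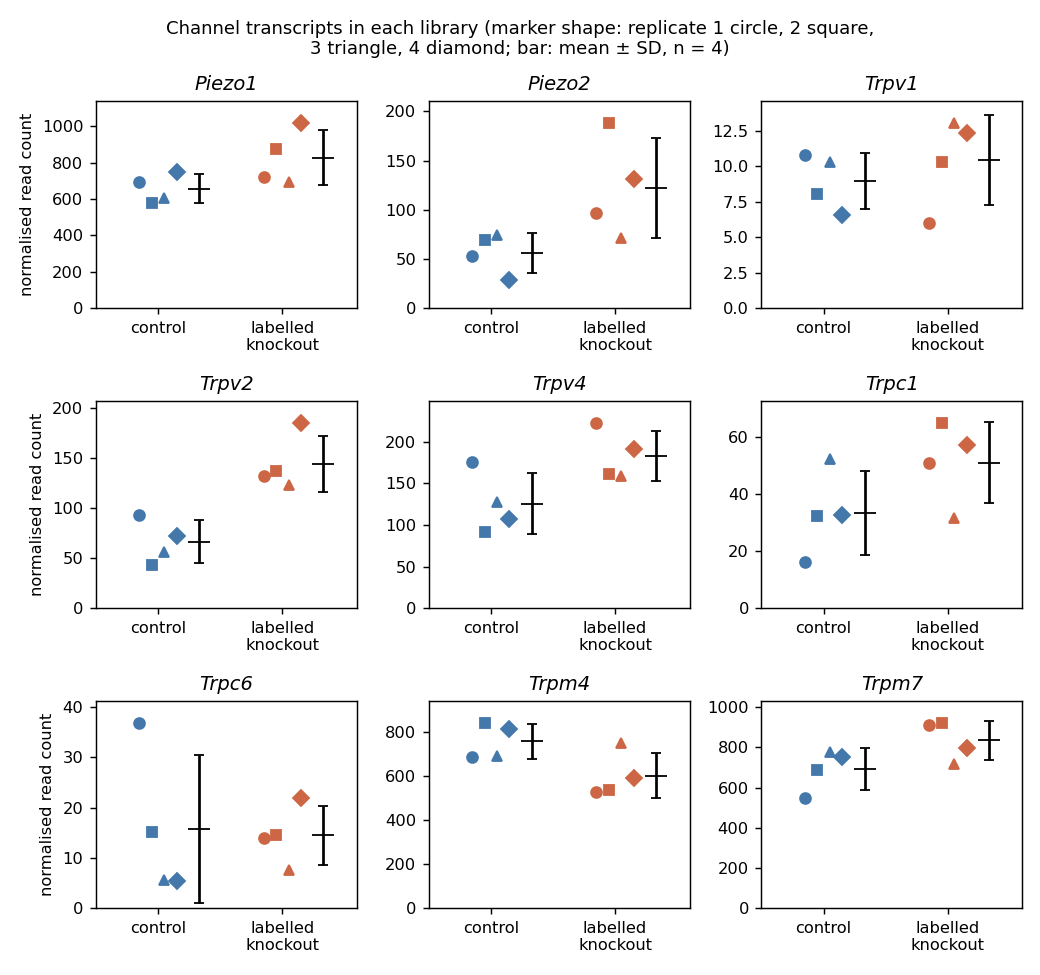
Normalised read count (y axis, from 0) of each channel gene in every library, by group, with marker shapes for the replicate number and bars for mean ± SD (n = 4). The groups are separate for Trpv2 (43.4 to 93.0 against 123 to 185) and overlap in the other 8 panels.

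Piezo1 (chromosome 8, 122481698 to 122551329, minus strand), a stretch-activated channel of many cell types including endothelium and chondrocytes, was among the more abundant of the set. Its normalised read count was 694, 577, 608 and 749 in the controls and 724, 875, 693 and 1019 in the libraries labelled knockout. Replicates 2 and 4 of the libraries labelled knockout lay above every control, and replicates 1 and 3 lay within the control range. The mean was 657 ± 78.9 and 828 ± 150, and the log2 difference of 0.32 (SE 0.14, 95% interval 0.015 to 0.63) was not called (limma adjusted p = 0.115, exact permutation p = 0.143). Overlapping genes (Ctu2 and Gm20388 on the opposite strand, Gm26497 on the same strand) share 24.6% of the exon bases of Piezo1. The use of strand in counting is not given in the sources used here, so reads from there are uncertain. Ctu2 itself had 190 ± 16.7 and 165 ± 25.8 normalised reads, a log2 difference of -0.21 (SE 0.14, limma adjusted p = 0.290).

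Piezo2 (chromosome 18, 63010213 to 63387183, minus strand), the channel of touch and joint position sense, showed a difference about as large as that of Trpv2 but with more spread. Its normalised read count was 53.0, 68.6, 73.8 and 28.5 in the controls and 96.7, 188, 70.7 and 131 in the libraries labelled knockout. Replicate 3 of the libraries labelled knockout lay below control replicate 3, and the other 3 lay above every control. The mean was 56.0 ± 20.4 and 122 ± 50.8. The log2 difference of 1.10 (SE 0.36, 95% interval 0.30 to 1.90) stood at a limma adjusted p of 0.0514 and an exact permutation p of 0.0571, so it was not called. It was called without control replicate 3 (difference 1.26, limma adjusted p = 0.0434) and without knockout replicate 3 (1.33, 0.0273). It also passed with edgeR (adjusted p = 0.0472) and DESeq2 (adjusted p = 0.0111) on recovered reads. Without control replicate 4 the difference was 0.81 (limma adjusted p = 0.111), and without knockout replicate 2 it was 0.86 (limma adjusted p = 0.126). Under quantile normalisation it was 0.86 (limma adjusted p = 0.123). Fibroblast markers moved in the same direction, with 11 of 16 called, all higher, and summed levels of 85392 to 237929 in the controls and 251819 to 437073 in the libraries labelled knockout. Their part in the Piezo2 values was not tested.

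Trpc1 (chromosome 9, 95705082 to 95750375, minus strand) encodes a receptor- and store-operated subunit that pairs with other TRPC proteins. The libraries held, in normalised reads, 16.2, 32.3, 52.3 and 32.9 in the controls and 50.9, 65.0, 31.5 and 57.2 in the libraries labelled knockout. Control replicate 3 lay above knockout replicates 1 and 3, and the groups overlapped. The log2 difference was 0.66 with an SE of 0.36 and a 95% interval from -0.14 to 1.47 (limma adjusted p = 0.207), and it was not called in any of the fits made. Without control replicate 1, the lowest control, it was 0.37 (limma adjusted p = 0.433).

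Trpc6 (chromosome 9, 8544142 to 8680741, plus strand), a diacylglycerol-gated channel of smooth muscle and fibroblasts, was low and scattered, with 5 to 34 reads per library. The libraries held, in normalised reads, 36.8, 15.1, 5.61 and 5.48 in the controls and 14.0, 14.5, 7.61 and 22.0 in the libraries labelled knockout. The whole range of the libraries labelled knockout lay inside that of the controls. The log2 difference was 0.20 (SE 0.60, 95% interval -1.12 to 1.53, limma adjusted p = 0.830), while the mean normalised count was slightly lower in the libraries labelled knockout, at 14.5 ± 5.89 against 15.7 ± 14.7. With edgeR and DESeq2 the difference was -0.088 and -0.098, and without control replicate 3 or 4 or knockout replicate 4 it was -0.11, -0.12 and -0.012. Without control replicate 1 it was 0.73. No direction can be read from these values.

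Trpm4 (chromosome 7, 45302632 to 45333780, minus strand), a calcium-activated channel that passes sodium and potassium but not calcium, was the only channel gene with a difference below 0. Its normalised read count was 686, 837, 690 and 811 in the controls and 529, 535, 750 and 590 in the libraries labelled knockout. Replicates 1, 2 and 4 of the libraries labelled knockout lay below every control, and replicate 3 lay between the 2 lower and the 2 higher controls. The mean was 756 ± 79.2 and 601 ± 103, and the log2 difference of -0.34 (SE 0.13, 95% interval -0.62 to -0.053) was not called (limma adjusted p = 0.0816, exact permutation p = 0.0857). Without knockout replicate 3 it was -0.45 and was called (limma adjusted p = 0.0172). Under the scaling on genes outside muscle and blood it was -0.19 (limma adjusted p = 0.267). Skeletal muscle markers were lower too, by 0.77 on the log2 scale for their sum, with 9 of 18 called, all lower. Their part in the Trpm4 values was not tested.

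Trpm7 (chromosome 2, 126791565 to 126876230, minus strand), a magnesium- and zinc-permeable channel fused to a protein kinase, was present at similar levels to Piezo1. The libraries held, in normalised reads, 547, 688, 777 and 753 in the controls and 909, 919, 716 and 797 in the libraries labelled knockout. Of the libraries labelled knockout 3 lay above every control, and replicate 3 lay within the control range. The mean was 691 ± 103 and 835 ± 96.8, and the log2 difference of 0.28 (SE 0.13, 95% interval -0.012 to 0.57) was not called (limma adjusted p = 0.145, exact permutation p = 0.114). Without control replicate 1, the lowest control, it was 0.17 (limma adjusted p = 0.313).

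To compare the genes with each other, the normalised reads were divided by the length of the longest annotated coding transcript. In the controls Trpm4 had the highest level, 178 ± 18.7 normalised reads per kb, and its lowest library lay above every value of the next gene. Trpm7 (97.3 ± 14.5) and Piezo1 (80.0 ± 9.60) followed with overlapping ranges, then Trpv4 (38.9 ± 11.4) and Trpv2 (22.8 ± 7.37), whose ranges also overlapped. The last 4 overlapped from each to the next, Trpc1 at 7.33 ± 3.24, Piezo2 at 5.22 ± 1.90, Trpc6 at 4.83 ± 4.52 and Trpv1 at 2.66 ± 0.587 per kb. In the libraries labelled knockout the order was the same except that Piezo2 (11.4 ± 4.74) came just before Trpc1 (11.2 ± 3.14), with overlapping ranges. Trpm4 (142 ± 24.4), Trpm7 (117 ± 13.6) and Piezo1 (101 ± 18.3) overlapped there from each to the next. The order of these 3 rests on the length used. All annotated exons of Trpm4 span 10.83 kb against 4.234 kb for the transcript. Over all exons the controls held 69.8 ± 7.32, 61.1 ± 9.10 and 66.1 ± 7.94 normalised reads per kb for Trpm4, Trpm7 and Piezo1, with overlapping ranges. The libraries labelled knockout held 55.5 ± 9.53, 73.8 ± 8.56 and 83.3 ± 15.1, with Trpm4 lowest of the 3 and ranges overlapping from each to the next.

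**Figure D3:**
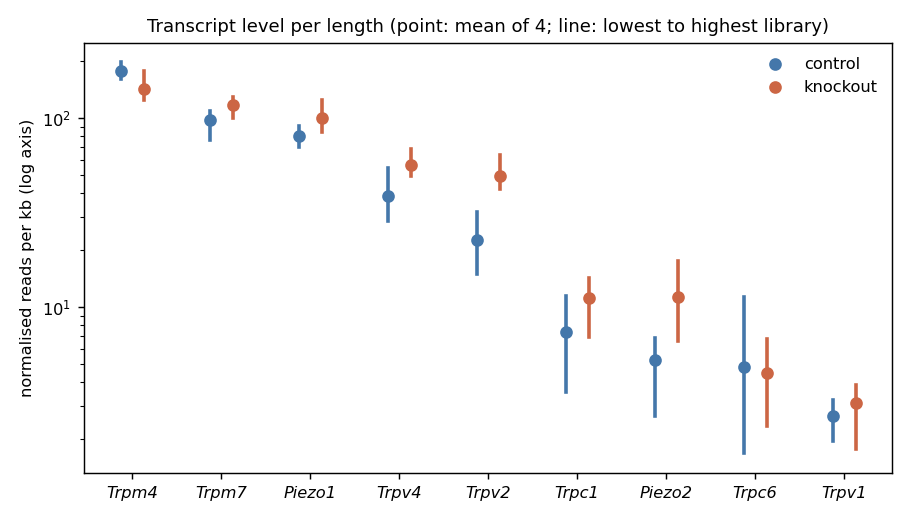
Normalised reads per kb of the longest coding transcript (log axis) for each channel gene, with the mean of 4 libraries as a point and the lowest to highest library as a line, in the controls and in the libraries labelled knockout. Trpm4, Trpm7 and Piezo1 lie highest, with control means of 178, 97.3 and 80.0 per kb. Trpv4 and Trpv2 lie in the middle, and the means of the other 4 genes near or below 10.

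Ratios of 2 channels within a library do not depend on the scaling, and 5 ratios within subfamilies were compared by exact two-sided permutation tests. The Trpm4 to Trpm7 ratio was 1.25, 1.22, 0.888 and 1.08 in the controls and 0.582, 0.583, 1.05 and 0.740 in the libraries labelled knockout, a log2 difference of -0.62 (exact permutation p = 0.0571, 0.143 adjusted over the 5 ratios). Knockout replicate 3 was the only library of its group above any control. The Trpv2 to Trpv4 ratio was 0.528, 0.473, 0.441 and 0.673 in the controls and 0.592, 0.851, 0.774 and 0.968 in the libraries labelled knockout, a log2 difference of 0.58 with the same p-values (exact permutation p = 0.0571, adjusted 0.143). The Piezo1 to Piezo2 ratio ran from 8.23 to 26.3 in the controls and from 4.65 to 9.80 in the libraries labelled knockout (log2 difference -0.78, exact permutation p = 0.143, adjusted 0.238). The log2 differences of the Trpv1 to Trpv4 and Trpc1 to Trpc6 ratios were -0.40 and 0.46 (adjusted exact permutation p = 0.393 and 0.800). Without control replicate 1 the Trpc1 to Trpc6 difference was -0.36, the opposite direction. The Piezo1 to Piezo2 difference was -0.42 without control replicate 4, and the Trpv1 to Trpv4 difference -0.082 without knockout replicate 1. None of the 5 ratios passed 0.05 after adjustment. The smallest p that this exact permutation test can give is 0.0286, and a lone ratio at that p would not pass the adjustment. These tests therefore cannot decide whether 2 channels of a single subfamily changed unequally.

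Of 21 other TRP family genes, 13 were in the table, 7 were tested and 0 passed the limma test. Of the 7, 1 (Pkd2) had an unadjusted limma p under 0.05, as had 5741 of the 14949 genes tested. The difference of each of the 7 lay above 0, with a median of 0.16 against 0.0012 over all genes, and edgeR called 0 and DESeq2 1 of them (22.2% and 27.6% of all genes tested). Pkd2, the polycystin channel of cilia and endoplasmic reticulum, was closest by limma, with 701 ± 271 and 1140 ± 298 normalised reads and a log2 difference of 0.73 (SE 0.25, limma adjusted p = 0.0631). It is named although it did not pass and was chosen after its values were seen. Trpa1, the irritant receptor, and Trpm8, the cold receptor, had no row in the table and were not analysed here.

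Among the other mechanosensitive and acid-sensing channels and the partners of Piezo, 21 of 24 were in the table, 17 were tested, 3 rose and 2 fell, while 23.2% of all genes tested were called, and the other 12 did not pass. Gja1, which encodes connexin 43, the main gap junction and hemichannel protein of bone, cartilage and synovial cells, had 785, 374, 898 and 346 normalised reads in the controls and 3926, 2129, 2527 and 2905 in the libraries labelled knockout. All 4 lay far above every control (log2 difference 2.35, SE 0.32, limma adjusted p = 0.00397). Asic3, an acid-sensing channel known from pain fibres of muscle and joint, rose from 34.8 ± 14.9 to 98.9 ± 19.1 (log2 difference 1.55, SE 0.30, limma adjusted p = 0.00889), and its groups did not overlap. Mdfic, which encodes an auxiliary subunit bound to Piezo channels, rose from 260 ± 52.2 to 388 ± 81.2 (0.57, SE 0.18, limma adjusted p = 0.0434). Tmem63b, a stretch- and osmosensitive channel, fell from 1455 ± 140 to 1040 ± 123 (-0.49, SE 0.11, limma adjusted p = 0.0128), and Stom, which encodes stomatin, a membrane protein that modulates acid-sensing channels, fell from 1204 ± 162 to 925 ± 107 (-0.38, SE 0.12, limma adjusted p = 0.0419). The median of the 17 was 0.11. The count fell to 3 without any of control replicates 2 and 4 or knockout replicates 1, 2 and 4, where the calls of Mdfic (adjusted p 0.0743 to 0.109) and Stom (0.0709 to 0.108) were lost. Both calls were also lost without control replicate 1 (0.0656 and 0.0694). Under the scaling outside muscle and blood genes the difference of Stom was -0.23 (limma adjusted p = 0.158).

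Of the 26 genes of store-operated calcium entry and of the route from calcium to NFAT, all were tested, 6 rose, 4 fell and 16 did not pass, with a median of -0.19. Over all genes tested 11.6% rose and 11.6% fell. Stim1, the calcium sensor of the endoplasmic reticulum and abundant in skeletal muscle, fell from 5034 ± 323 to 3135 ± 412 (log2 difference -0.69, SE 0.10, limma adjusted p = 0.00456). Orai2, a plasma membrane channel that STIM proteins open, rose from 79.8 ± 36.6 to 192 ± 43.6 (1.34, SE 0.30, limma adjusted p = 0.0148). The more abundant Orai1 went the other way without being called, with 703 ± 56.8 and 554 ± 87.5 (-0.35, SE 0.12, limma adjusted p = 0.0592). Orai3 was not called either (0.20, SE 0.11, limma adjusted p = 0.206). Itpr3, an inositol trisphosphate receptor, rose from 257 ± 41.9 to 407 ± 28.1 (0.67, SE 0.13, limma adjusted p = 0.00897), and Plcg1, a phospholipase that makes inositol trisphosphate, from 597 ± 73.2 to 757 ± 15.8 (0.35, SE 0.10, limma adjusted p = 0.0290). Plcg2 and Itpr2 also rose, but their calls were lost in 9 and 11 of 17 alternatives (muscle covariate left aside).

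Downstream, the calmodulin gene Calm3 fell from 5496 ± 295 to 3983 ± 585 (-0.47, SE 0.11, limma adjusted p = 0.0171). The calcineurin subunits Ppp3cb (4845 ± 247 to 3515 ± 412, -0.47, SE 0.10, limma adjusted p = 0.0115) and Ppp3r1 (2434 ± 143 to 1973 ± 151, -0.30, SE 0.084, limma adjusted p = 0.0285) fell with it. Of the NFAT genes Nfatc4 alone was called, rising from 243 ± 72.2 to 555 ± 115 (1.22, SE 0.23, limma adjusted p = 0.00790), and the groups did not overlap. The falls of Calm3 and Ppp3r1 were not called under the scaling outside muscle and blood genes (-0.33, limma adjusted p = 0.0566, and -0.15, limma adjusted p = 0.197). Under quantile normalisation Calm3, Ppp3cb and Ppp3r1 stood at -0.18, -0.20 and -0.12 (limma adjusted p = 0.252, 0.148 and 0.299). The call of Ppp3r1 was lost in the fits that lacked control replicate 1, 2 or 4, or else knockout replicate 4 (limma adjusted p 0.0662 to 0.0759), and that of Plcg1 in 6 such fits, all but those without control replicate 1 or knockout replicate 3 (0.0562 to 0.0811). The count of 10 fell to 6 without control replicate 4 or knockout replicate 4.

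**Figure D4:**
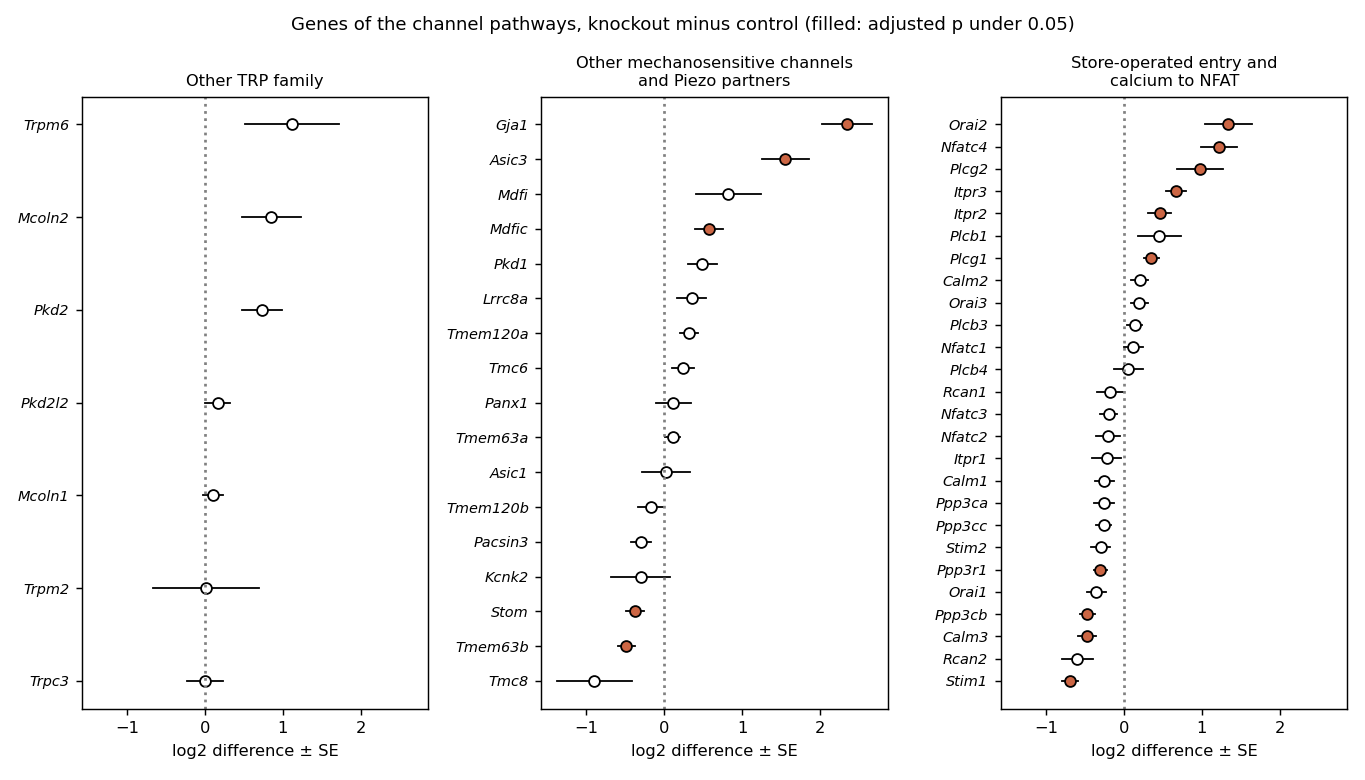
Log2 difference ± SE (x axis) of every tested gene of the 3 lists of related channels and signalling genes, libraries labelled knockout minus control; filled points have an adjusted p under 0.05. The other TRP genes have 0 filled points, the mechanosensitive list 5 (led by Gja1 at 2.35) and the calcium list 10, with Stim1 lowest at -0.69.

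The genes whose pattern lay nearest to that of Trpv2, by the root mean square difference of centred log2 values over the 8 libraries, were sought among 11638 genes with a mean of at least 50. Dock10 was nearest at 0.126, with 102, 48.5, 65.4 and 75.6 in the controls and 118, 153, 117 and 177 in the libraries labelled knockout. It was followed by 1700017B05Rik (0.168) and Crlf2, the receptor of thymic stromal lymphopoietin (0.182). In control replicate 2, which had the lowest Trpv2 value, each of these 3 genes was also at its lowest. In knockout replicate 4 each was at its highest. Because the 3 were picked for nearness over these same libraries, the shared extremes are no separate finding.

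Set beside the marker sums, Trpv2 and the macrophage sum were both lowest in control replicate 2 and both highest in knockout replicate 4. Within the controls their order differed. Trpv2 was highest in control replicate 1 (centred log2 value -0.034, macrophage sum -0.80). The macrophage sum was highest in control replicate 3 (-0.15, Trpv2 -0.75). The muscle sum had its extremes in the same libraries as Trpv2, in reverse. The fibroblast sum was lowest in control replicate 4, as Piezo2 was, but Piezo2 was highest in knockout replicate 2 and the fibroblast sum in knockout replicate 4. The muscle sum and Trpm4 were both highest in control replicate 2, while the lowest muscle sum was in knockout replicate 4 and the lowest Trpm4 value in knockout replicate 1. With the mean log2 value of the muscle markers as a covariate, 0 genes were called by limma in the whole table and 523 had an unadjusted p under 0.05, and the difference of Trpv2 was -0.043. Of the variance of that muscle score 86.5% lay between the groups, so score and group can hardly be told apart. The endothelial marker sum, 7330 to 9393 in the controls and 5747 to 12038 in the libraries labelled knockout, did not separate the groups.

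**Figure D5:**
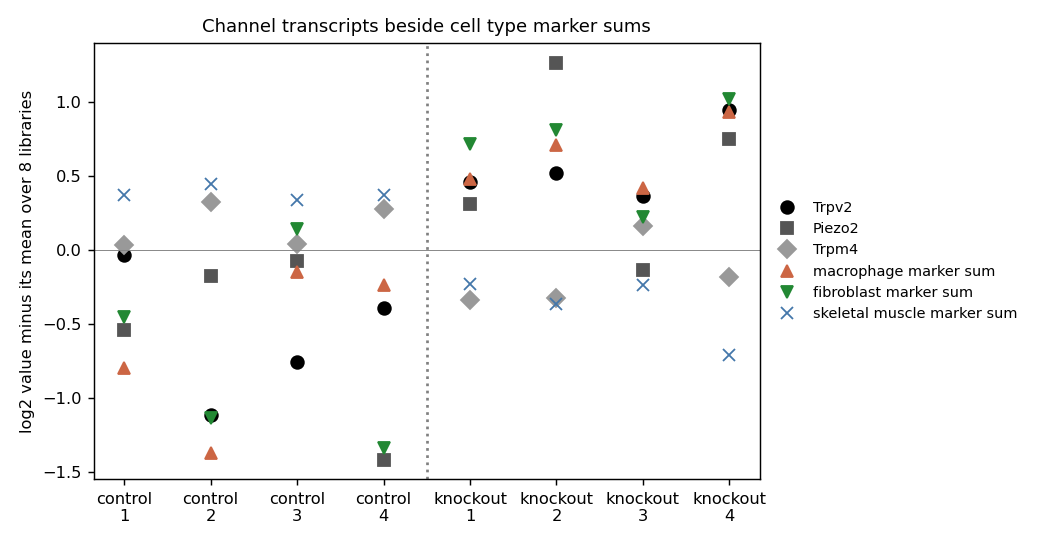
Log2 value minus its mean over the 8 libraries (y axis) for Trpv2, Piezo2, Trpm4 and the summed macrophage, fibroblast and skeletal muscle markers in each library (x axis); the dotted line divides the groups. Trpv2 and the macrophage sum lie below 0 in every control library and above 0 in every library labelled knockout, and the muscle sum does the reverse.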

How the data were processed

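The deposited table holds 1 signal per gene and library: per the series' design text, the authors aligned reads to mm10, counted them with featureCounts and normalised and filtered with DESeq2, and the submitters' processing notes also name HISAT2. Versions, annotation, strand setting and filter are not given in the sources used here. In each column 100% of values were whole multiples of 1 step (within 0.01 reads), and size factors recomputed from those whole reads matched the inverse of the step. The steps of 1.01 (control replicate 2) and 0.997 (knockout replicate 1) are too near 1 to show this by themselves. Of the value columns, 0 were unmapped.

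Samples were grouped by title. The 14949 genes that reached 10 normalised reads in 4 or more of the 8 libraries were fitted on log2(value + 1) with limma 3.58.1 (trend), with Benjamini-Hochberg adjustment over all of them and a threshold of 0.05. Single values and ratios used exact two-sided permutation tests over 70 assignments. The members, lists and tests were chosen with earlier results of these data known. The named genes are all 9 members, all called genes of the lists, and the 3 genes nearest in pattern to a called member. The plan was to name up to 8 called genes of smallest p per list, which the calcium list exceeds. Also named are Loxl2, Trpa1, Trpm8 and the genes that overlap Piezo1. Pkd2, Orai1 and Orai3 are named too, chosen after their values were seen. Alternatives were pseudocounts of 0.1 and 10, no filter, 3 other scalings, the replicate block, a muscle covariate, edgeR 4.0.16 and DESeq2 1.42.0 on recovered reads, and leaving out each library. Only the limma, edgeR and DESeq2 fits were run on simulated counts, in which as many genes were raised as lowered. Those counts held no shift in the make-up of the RNA, so they cannot show how the scaling acts in these data. Positions come from GENCODE M21 (99.2% of rows matched by symbol) and promoters from RefSeq. The labels name no litter, batch or date, so p-values measure the spread between these samples, which may be technical. Pairs of libraries within a group differed by more than counting error (chi-square per degree of freedom 25.1 to 66.9).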

Additional observations from a re-analysis of the deposited data

Results flagged for a closer look

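The highest and lowest of 4 values were checked in 18 groups of libraries (9 channel genes in 2 groups), and 0 stood apart by Dixon's criterion.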

How the results depend on the processing

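Trpv2 was called in 17 of 17 alternatives other than the muscle covariate. The count of genes called was 2018 with the replicate block and 1751 to 3841 with a library left out, lowest without knockout replicate 4 and also low without control replicates 2 (1887) and 4 (2194). Same-numbered libraries of the 2 groups correlated at 0.21, -0.12, -0.23 and -0.063 in their deviations from the group means. Differently numbered pairs ran from -0.16 to 0.27, so these values cannot decide whether libraries of the same number were paired. The block gave 2 calls in the mechanosensitive list, where Tmem63b stood at an adjusted p of 0.0510 by limma.

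With the muscle score as covariate 0 genes were called, and so 0 channel genes and 0 in each list, and the differences were -0.53 for Piezo1, -0.16 for Trpv1, -0.043 for Trpv2 and -1.11 for Trpc6. Under the scaling outside muscle and blood genes 5 channel genes and 1 other TRP gene were called, with Piezo1 at 0.47, Piezo2 at 1.25, Trpv4 at 0.72 and Trpm7 at 0.43, and 2720 genes were higher and 777 lower in all. A pseudocount of 10, edgeR and DESeq2 each called 2 channel genes, with Piezo2 at 0.98, 1.13 and 1.13, and DESeq2 called 1 other TRP gene. Quantile normalisation gave -0.15 for Trpv1 and -0.083 for Trpc6, and edgeR and DESeq2 gave -0.088 and -0.098 for Trpc6. With a library left out, 1 to 3 channel genes, 0 to 1 other TRP genes, 3 to 7 of the mechanosensitive list and 6 to 10 of the calcium list were called. The differences then ran from 0.81 to 1.33 for Piezo2, 0.43 to 0.75 for Trpv4, -0.12 to 0.73 for Trpc6 (reversed values -0.11, -0.12 and -0.012) and -0.45 to -0.28 for Trpm4. The cause was not tested. The direction of 4 of the 5 ratios was kept, and the Trpc1 to Trpc6 difference ran from -0.36 to 1.02 with a library left out, where ratios had no test. Trpv1 and Trpc6 rest on 6 to 14 and 5 to 34 reads per library.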
